A study of Homo sapiens and Mus musculus with 24 samples.

Results

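Solute carriers are the membrane proteins that move sugars, amino acids, ions, nucleosides, metals, vitamins and lipids across the membranes of a cell. The members described here are the human genes whose symbol begins with SLC and a digit and whose mean level over 15 Caco-2 RNA-seq libraries was at least 1 CPM, CPM being reads of a gene scaled to the reads counted in the library (for the rule) or to that total after TMM scaling (for every other level). By this rule 254 of the 512 genes with such a symbol were members, out of 58051 gene identifiers in the human tables. The mean level chose the members, so that a level of at least 1 CPM is no result. Just inside the threshold lay SLC30A4 at 1.01 CPM and SLC2A9 at 1.01 CPM, and just outside it lay SLC25A35 at 0.978 CPM and SLC38A11 at 0.962 CPM. Of the 254 members, 239 were protein-coding genes and 15 were pseudogenes or non-coding RNAs named after a carrier. Among the 258 genes left out, 76 had no read in any library. A further 226 mouse genes carried the symbol of a member and were used as a second model.

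Caco-2 is a human colorectal adenocarcinoma line that takes on features of absorptive enterocytes. Its groups were unedited cells (WT, 4 libraries), 1 clonal line in which the gene for the DNA methyltransferase DNMT3A was cut with CRISPR-Cas9 (ΔDNMT3A, 4 libraries), and 2 lines made from ΔDNMT3A cells. These 2 lines received a TY1-tagged isoform from a CMV-driven piggyBac vector with puromycin selection (DNMT3A1, 3 libraries, and DNMT3A2, 4 libraries) and were expanded as clones. Each line other than WT is therefore a clone, and the effects of clone and genotype cannot be told apart. The mouse groups were colonic epithelial cells sorted for EpCAM from floxed mice (Dnmt3a fl/fl, 4 libraries) and from mice in which Villin-Cre deletes Dnmt3a in the intestinal epithelium (Dnmt3a ΔIEC, 4 libraries), all at steady state. The comparisons ask how the carrier repertoire of epithelial cells differs without DNMT3A and with each isoform added back.

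In the intestine, carriers sit in a polar order. Apical carriers of the brush border take up nutrients with sodium (SLC5A1 for glucose and galactose), with protons (SLC15A1 for peptides), by exchange for other amino acids (the SLC3A1 and SLC7A9 pair for cystine and dibasic amino acids) or by facilitated diffusion (SLC2A5 for fructose). Basolateral carriers such as SLC2A2 and SLC40A1 pass sugars and iron on to the blood. SLC7A11 is the cystine-glutamate exchanger that feeds glutathione synthesis, and SLC26A3 is the apical chloride-bicarbonate exchanger of the colon.

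Each library held 22104408 to 42161299 reads counted on genes in Caco-2 and 16943626 to 24921248 in the mouse. DNMT3A itself was at 64.6 ± 2.27 CPM (SD, n = 4) in WT, 20.7 ± 1.22 CPM (n = 4) in ΔDNMT3A and 38 ± 1.23 CPM (n = 3) in DNMT3A1. In the libraries labelled DNMT3A2 it was at 21.9 ± 1.4 CPM (n = 4), which put it 0.07 above ΔDNMT3A on the log2 scale (SE 0.06, adjusted p = 0.272), so that these libraries are called by their label throughout. At the protein level, the paper reports both isoforms as re-expressed by immunoblot and as nuclear by immunofluorescence. How far RNA of the tagged vector is counted on the gene was not tested. Epithelial markers summed to between 7729 and 12026 CPM in every Caco-2 library, while the 4 of 6 listed colonocyte markers that matched a human symbol summed to at most 2.88 CPM. Car1 and Car4 of that list are mouse symbols without a match by name, so their human genes were not read. Dnmt3a fell from 93.9 ± 7.70 to 46.1 ± 3.30 CPM in ΔIEC cells (n = 4 each, log2 fold change -1.03, SE 0.09, adjusted p = 0.000762).

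DNMT3A methylates cytosine where it stands before guanine, so the promoters of 6 named carriers, which are not the 6 that differed most, are shown for their content of that pair. The lines below give the 200 bases before the start of 6 carriers from RefSeq (GRCh38.p14), 5′ to 3′ on the gene's strand, with each CG pair in capitals. SLC2A5, SLC5A1 and SLC15A1 were high in ΔDNMT3A, SLC34A2 was high in both isoform lines, SLC26A3 is the colonic chloride exchanger, and SLC25A45 is the human counterpart of the carrier that changed in the mouse.
SLC2A5 (chr1:9069636-9069835, minus strand): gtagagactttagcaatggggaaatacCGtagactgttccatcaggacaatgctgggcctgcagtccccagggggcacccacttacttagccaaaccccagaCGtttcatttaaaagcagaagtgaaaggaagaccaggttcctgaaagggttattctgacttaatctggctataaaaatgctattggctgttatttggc
SLC5A1 (chr22:32043061-32043260, plus strand): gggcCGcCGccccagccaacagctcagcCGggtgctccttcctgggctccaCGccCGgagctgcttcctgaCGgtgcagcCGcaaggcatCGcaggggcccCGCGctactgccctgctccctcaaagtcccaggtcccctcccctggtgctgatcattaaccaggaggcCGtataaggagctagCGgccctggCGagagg
SLC15A1 (chr13:98752673-98752872, minus strand): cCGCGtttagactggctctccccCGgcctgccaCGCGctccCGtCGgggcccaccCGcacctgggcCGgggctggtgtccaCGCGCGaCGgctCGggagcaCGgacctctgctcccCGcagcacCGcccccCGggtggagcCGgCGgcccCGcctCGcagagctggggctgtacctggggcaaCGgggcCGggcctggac
SLC26A3 (chr7:107803224-107803423, minus strand): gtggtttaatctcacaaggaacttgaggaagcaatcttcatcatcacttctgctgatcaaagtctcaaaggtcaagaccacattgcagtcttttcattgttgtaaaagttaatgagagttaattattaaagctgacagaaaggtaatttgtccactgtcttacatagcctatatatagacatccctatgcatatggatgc
SLC34A2 (chr4:25655651-25655850, plus strand): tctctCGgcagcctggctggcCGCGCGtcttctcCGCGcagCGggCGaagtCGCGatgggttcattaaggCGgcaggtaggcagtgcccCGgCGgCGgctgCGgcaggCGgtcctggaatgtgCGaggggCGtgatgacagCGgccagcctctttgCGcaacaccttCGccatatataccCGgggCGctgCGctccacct
SLC25A45 (chr11:65382647-65382846, minus strand): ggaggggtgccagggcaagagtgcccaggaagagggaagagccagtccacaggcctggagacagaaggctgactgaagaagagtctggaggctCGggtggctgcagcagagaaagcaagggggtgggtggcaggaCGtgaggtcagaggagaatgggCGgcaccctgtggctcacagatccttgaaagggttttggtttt
The 6 stretches hold very different numbers of pairs. SLC15A1 and SLC34A2 have 24 each and SLC5A1 has 13, whereas SLC25A45 has 3, SLC2A5 has 2 and SLC26A3 has none. SLC3A1 and SLC7A11 are named only.

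Per length of transcript, the facilitative glucose carrier SLC2A3 led the members in each of the 4 lines, with 320 RPKM (CPM divided by transcript length in kilobases) for WT, 364 for ΔDNMT3A, 328 for DNMT3A1 and 429 for the libraries labelled DNMT3A2. Reads of SLC2A3 and its near-identical neighbour SLC2A14 may be split between the genes by the counting, so its value is uncertain. The next members in WT were the adenine nucleotide carriers of the inner mitochondrial membrane, SLC25A5 (243 RPKM) and SLC25A6 (242 RPKM), whose order does not hold in DNMT3A1, where SLC25A6 had 274 RPKM and SLC25A5 had 241. They were followed by the glutamine carrier SLC1A5 (132 RPKM), the zinc and iron importer SLC39A14 (118 RPKM), the phosphate carrier SLC25A3 (105 RPKM) and the dibasic amino acid carrier SLC7A7 (94.6 RPKM). Several well-known intestinal carriers fell below the rule, namely SLC9A3, SLC6A19, SLC6A14, SLC28A3, SLC10A2, SLC51A and SLC4A4. Symbols such as SLC4A1AP, SLC7A6OS and SLC2A4RG fit the rule although their products are not carriers.

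Each pair of lines was tested over all genes with edgeR, and a member counts as called at an adjusted p under 0.05 (Benjamini-Hochberg adjustment over all genes tested). In ΔDNMT3A against WT, 196 of 254 members were called, 102 higher and 94 lower. This is 77.2% of members beside 62.2% of all 16654 genes tested, and beside 68.2% of genes at 1 CPM or more, the level that the rule asks of members. In DNMT3A1 against ΔDNMT3A, 186 members were called, 95 higher and 91 lower (73.2% beside 60.7% of all genes and 67.2% of those at 1 CPM or more). All genes tested were called higher in 31.2% and lower in 31% in ΔDNMT3A against WT (34% and 34.1% at 1 CPM or more), and in 30.4% and 30.3% in DNMT3A1 against ΔDNMT3A (32.7% and 34.5%). In the libraries labelled DNMT3A2 against ΔDNMT3A, 207 members were called (81.5% beside 67.9% and 73.5%). Here the directions were unequal, with 72 members higher and 135 lower, while all genes tested were called higher in 33.8% and lower in 34.1% and genes at 1 CPM or more in 37.1% and 36.5%. The median log2 fold change of the members in that comparison was -0.19, against 0.01 for genes at 1 CPM or more.

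A member that is high in 1 line alone can pass the rule through that line. Of the 254 members, 225 had at least 1 CPM in each line, 29 fell below it in some line and 3 reached it in only 1 line (SLC2A9 in ΔDNMT3A, and SLC26A3 and SLC28A2 in the libraries labelled DNMT3A2). Over the 225, 63 were higher and 118 lower in the libraries labelled DNMT3A2 against ΔDNMT3A (median -0.16), 85 were higher and 85 lower in ΔDNMT3A against WT, and 83 were higher and 80 lower in DNMT3A1 against ΔDNMT3A. Most changes were small. Over all 254, members called with at least a 2-fold difference numbered 18 higher and 7 lower in ΔDNMT3A against WT. They numbered 14 higher and 8 lower in DNMT3A1, and 15 higher and 34 lower in the libraries labelled DNMT3A2, against ΔDNMT3A. Over the 225, they numbered 8 higher and 2 lower, 7 higher and 3 lower, and 8 higher and 22 lower in the same order. Of the 18 and 7 in ΔDNMT3A against WT, 10 and 5 thus fell below 1 CPM in some line. Of all genes tested, 4.73% were that much higher and 3.79% that much lower in ΔDNMT3A against WT, 5.18% and 3.14% in DNMT3A1 against ΔDNMT3A, and 4.43% and 7.47% in the libraries labelled DNMT3A2. In either direction this was 8.51%, 8.32% and 11.9% of all genes.

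**Figure D1:**
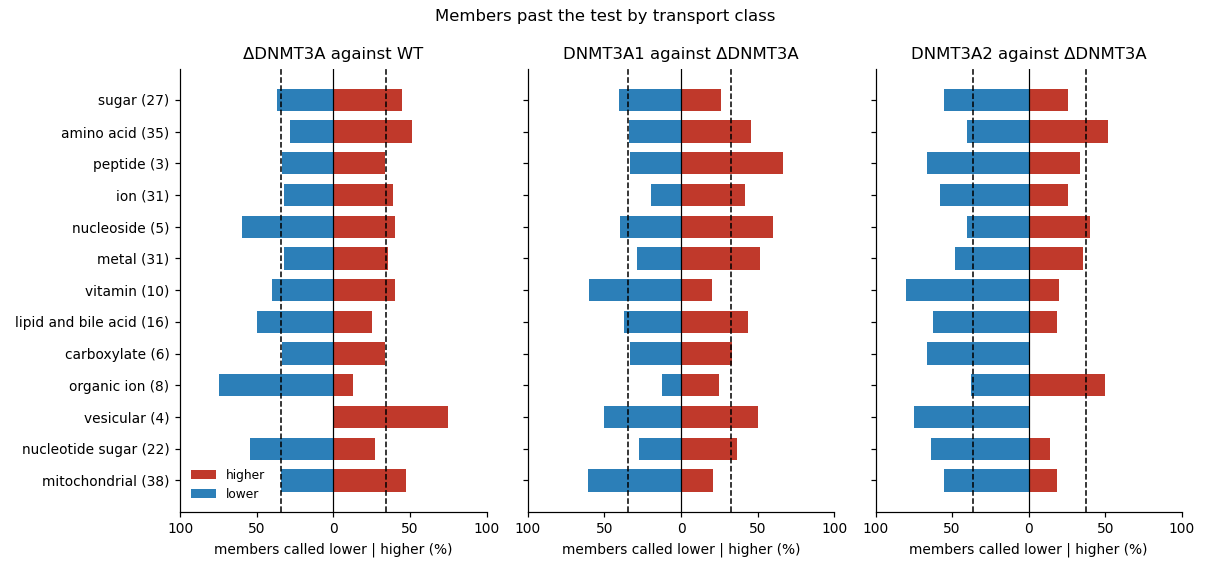
Share of the members of each transport class (number of members in brackets) called higher (red, to the right) or lower (blue, to the left) in 3 comparisons, in percent; dashed lines mark the shares for all genes at 1 CPM or more. In DNMT3A2 against ΔDNMT3A the lower bars pass the dashed line at 36.5% in every class, and the higher bars pass that at 37.1% for amino acid, nucleoside and organic ion carriers.

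The sugar carriers, 27 members, were split in ΔDNMT3A against WT (12 higher, 10 lower, 5 not called, median 0.00) and leaned lower in DNMT3A1 (7 higher, 11 lower, median -0.08) and in the libraries labelled DNMT3A2 (7 higher, 15 lower, median -0.23) against ΔDNMT3A. Their ends were the apical carriers of the absorptive cell. SLC2A5 was at 1.19, 1.01, 1.24 and 1.59 CPM in WT and at 11.2, 9.03, 12.8 and 14.6 CPM in ΔDNMT3A. In DNMT3A1 it was at 0.689, 0.765 and 5.72 CPM, and in the libraries labelled DNMT3A2 at 0.434, 0.277, 0.566 and 0.777 CPM. The ΔDNMT3A libraries lay above every other library, and 1 of the 3 DNMT3A1 libraries, replicate 4, stood apart from its group. Its log2 fold change was 3.19 in ΔDNMT3A against WT (SE 0.15), -2.19 in DNMT3A1 against ΔDNMT3A (SE 0.34) and -4.46 in the libraries labelled DNMT3A2 against ΔDNMT3A (SE 0.19). Without DNMT3A1 replicate 4 the second of these was -4.03.

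SLC5A1 also had its highest level in ΔDNMT3A and its lowest in the libraries labelled DNMT3A2, but DNMT3A1 lay below WT where SLC2A5 had a higher mean in DNMT3A1. It was at 2.00, 1.30, 1.69 and 1.85 CPM in WT, 11.2, 11.4, 12.4 and 13.3 CPM in ΔDNMT3A, 0.755, 1.07 and 1.10 CPM in DNMT3A1 and 0.355, 0.415, 0.460 and 0.551 CPM in the libraries labelled DNMT3A2. No group overlapped another, and the log2 fold changes were 2.78 (SE 0.10) in ΔDNMT3A against WT and, against ΔDNMT3A, -3.61 (SE 0.13) in DNMT3A1 and -4.72 (SE 0.13) in the libraries labelled DNMT3A2. SLC5A1 and SLC2A5 belong to the genes the set was proposed with, so no p is given for them. SLC2A9, a urate carrier of the same family as SLC2A5, had 0.925, 1.96, 0.564 and 0.477 CPM in WT, ΔDNMT3A, DNMT3A1 and the libraries labelled DNMT3A2, with a log2 fold change of 1.09 in ΔDNMT3A against WT (SE 0.18). It is a member only through its level in ΔDNMT3A, so no p is given.

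The basolateral sugar carrier SLC2A2 rose with them in ΔDNMT3A, from 18.4 ± 0.67 to 36.4 ± 2.18 CPM (n = 4 each, log2 fold change 0.98, SE 0.05, adjusted p = 2.93e-14), but stayed high in DNMT3A1 (29 ± 2.19 CPM, n = 3) and in the libraries labelled DNMT3A2 (31.5 ± 0.37 CPM, n = 4). The median of its 50 nearest tested genes was 0.53 in ΔDNMT3A against WT. The widely used glucose carrier SLC2A1 was at 440 ± 7.15, 425 ± 19.9 and 405 ± 12.9 CPM in WT, ΔDNMT3A and DNMT3A1 and did not pass the test in ΔDNMT3A against WT (log2 fold change -0.06, adjusted p = 0.0881). It was higher, at 547 ± 16.6 CPM, in the libraries labelled DNMT3A2 (0.36 against ΔDNMT3A, SE 0.03, adjusted p = 1.03e-10). In the opposite direction, SLC37A2, a carrier of phosphorylated sugars, had 2.87 ± 0.16 CPM in WT and fell to 0.909 ± 0.18 CPM in ΔDNMT3A, and was at 4.83 ± 0.18 CPM in DNMT3A1 and 2.39 ± 0.40 CPM in the libraries labelled DNMT3A2. SLC5A12, a sodium-coupled lactate carrier placed here by its family, fell from 2.84 to 0.938 CPM in ΔDNMT3A and was at 0.698 CPM in DNMT3A1 and 1.19 CPM in the libraries labelled DNMT3A2, where the differences from ΔDNMT3A were not called (adjusted p = 0.118 and 0.226).

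**Figure D2:**
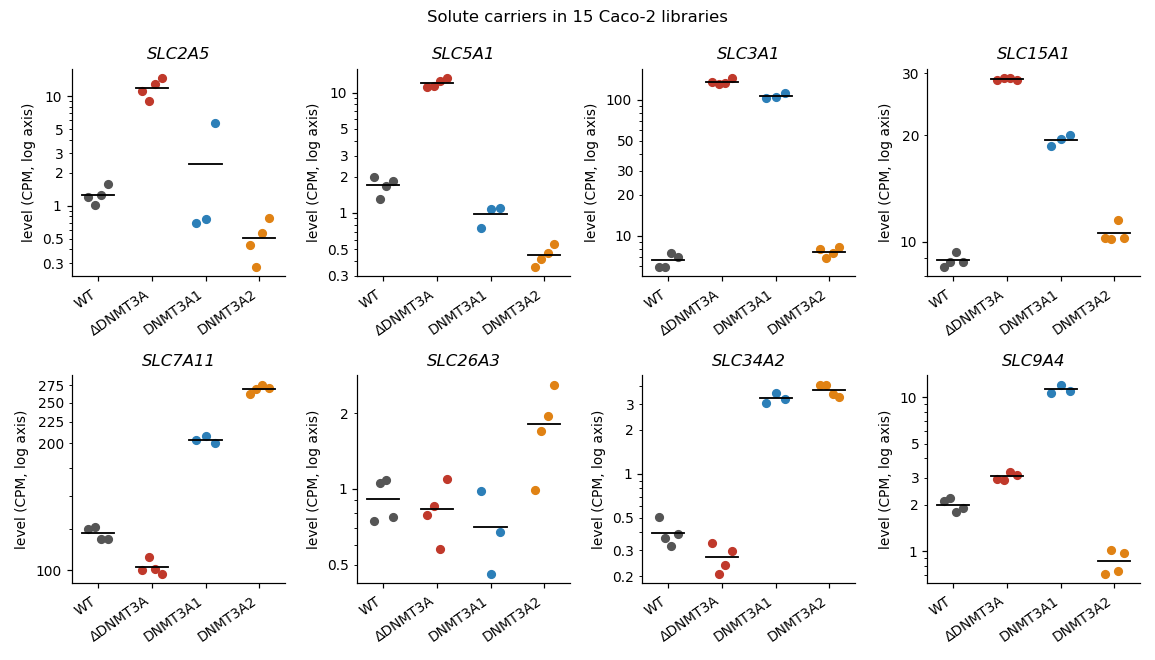
Level of 8 carriers in each of the 15 Caco-2 libraries, in CPM on a log axis, with points for libraries and a bar for the mean of the line. SLC2A5 and SLC5A1 peak in ΔDNMT3A at 11.9 and 12.1 CPM, SLC3A1 is high in ΔDNMT3A and DNMT3A1, and SLC7A11 and SLC34A2 are higher in both isoform lines than in WT or ΔDNMT3A.

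The amino acid carriers, 35 members, leaned higher in ΔDNMT3A against WT (18 higher, 10 lower, median 0.14) and in both isoform lines against ΔDNMT3A (DNMT3A1 16 higher and 12 lower, median 0.05; libraries labelled DNMT3A2 18 higher and 14 lower, median 0.09). SLC3A1, the heavy chain of the brush border cystine carrier, had the highest log2 fold change of any member in ΔDNMT3A against WT. It was at 5.94, 5.91, 7.49 and 7.02 CPM in WT and at 136, 130, 133 and 145 CPM in ΔDNMT3A, with 104, 105 and 112 CPM in DNMT3A1 and 7.98, 6.87, 7.43 and 8.23 CPM in the libraries labelled DNMT3A2. Thus ΔDNMT3A and DNMT3A1 were high, and WT and the libraries labelled DNMT3A2 were low. The log2 fold changes were 4.35 in ΔDNMT3A against WT (SE 0.05, adjusted p = 5.62e-26), -0.35 in DNMT3A1 against ΔDNMT3A (SE 0.04, adjusted p = 1.39e-07) and -4.15 in the libraries labelled DNMT3A2 against ΔDNMT3A (SE 0.05, adjusted p = 3.78e-26). The 50 nearest tested genes had medians of 0.59, 0.14 and -0.51 in the same comparisons.

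SLC7A9, the light chain that forms this carrier with SLC3A1, did not share its size of change. It was at 9.04 ± 0.57 CPM for WT, 10.7 ± 0.70 for ΔDNMT3A, 13.5 ± 1.04 for DNMT3A1 and 3.30 ± 0.83 in the libraries labelled DNMT3A2, and rose in ΔDNMT3A against WT by 0.23 (SE 0.07, adjusted p = 0.00578). The apical peptide carrier SLC15A1 was at 8.48, 8.77, 9.37 and 8.77 CPM in WT, 28.7, 29.1, 29 and 28.7 CPM in ΔDNMT3A, 18.7, 19.6 and 20.1 CPM in DNMT3A1 and 10.2, 10.2, 11.5 and 10.3 CPM in the libraries labelled DNMT3A2. No line overlapped another. Its log2 fold changes were 1.70 (SE 0.05, adjusted p = 2.1e-18), -0.57 (SE 0.05, adjusted p = 3.09e-09) and -1.45 (SE 0.05, adjusted p = 9.27e-17) in the same order of comparisons. SLC15A2, the high-affinity peptide carrier best known from kidney, went the other way, with 7.37 ± 0.76, 5.21 ± 0.42, 10.04 ± 1.51 and 7.77 ± 0.55 CPM.

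A list of small intestinal enterocyte markers was read beside these apical carriers. It named FABP6, LCT, SIS, APOA4, SLC10A2 and SLC5A1, itself a member, of which 5 matched a human symbol. The list was written in mouse symbols and matched by name, so SIS was left out for its symbol and its human gene was not read. These 5 summed to 21.0 to 27.7 CPM in WT, 64.3 to 76.5 CPM in ΔDNMT3A, 14.3 to 22.4 CPM in DNMT3A1 and 9.64 to 11.7 CPM in the libraries labelled DNMT3A2. LCT, which encodes lactase, was at 9.60, 26.2, 5.18 and 0.773 CPM on average and APOA4 at 11.1, 26.3, 5.97 and 6.39 CPM. FABP6, an ileal bile acid binding protein, was at 1.90, 5.28, 5.15 and 3.26 CPM, and SLC10A2 had at most 0.158 CPM in any library. The sum, to which SLC5A1 itself contributes, was thus highest in ΔDNMT3A, as were SLC2A5 and SLC15A1. In DNMT3A1 the sum overlapped WT at a lower mean (17.3 against 24.3 CPM), whereas SLC3A1 and SLC15A1 stayed above WT. SLC7A9 was highest in DNMT3A1. KRT20, a keratin of differentiated intestinal epithelium, was at 1.03, 16.1, 1.82 and 0.743 CPM. It is 1 of 7 epithelial markers listed, and the others did not share its size of change in ΔDNMT3A against WT. EPCAM, KRT18, KRT8 and CDH1 were higher (0.44, 0.43, 0.36 and 0.15). VIL1 was not called (0.04, adjusted p = 0.142), and CDX2 was lower (-0.15, adjusted p = 0.00024). The part of differentiation in the carrier values was not tested. In bulk RNA, fewer cells of a type and less RNA per cell cannot be told apart.

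SLC7A11 had a different order of lines. Its libraries were at 125, 127, 119 and 119 CPM in WT and at 100, 107, 101 and 98.1 CPM in ΔDNMT3A. In DNMT3A1 they were at 203, 209 and 200 CPM, and in the libraries labelled DNMT3A2 at 262, 269, 275 and 271 CPM. No line overlapped another, with the order ΔDNMT3A, WT, DNMT3A1 and the libraries labelled DNMT3A2 from low to high. The log2 fold change was -0.28 in ΔDNMT3A against WT, 1.01 in DNMT3A1 and 1.4 in the libraries labelled DNMT3A2 against ΔDNMT3A (SE 0.03 each). The isoform lines also differed from each other, by -0.40 in DNMT3A1 against the libraries labelled DNMT3A2 (SE 0.03).

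Other members of the amino acid class rose in both isoform lines against ΔDNMT3A. SLC7A2, a carrier of cationic amino acids, was at 80.0 ± 2.13 and 76.3 ± 3.21 CPM in WT and ΔDNMT3A, 180 ± 11.7 CPM in DNMT3A1 and 173 ± 4.46 CPM in the libraries labelled DNMT3A2. The glutamate carrier SLC1A2 rose from 2.34 ± 0.33 CPM in ΔDNMT3A to 13.5 ± 0.24 CPM in DNMT3A1 (log2 fold change 2.54, SE 0.09, adjusted p = 1.14e-14) and 5.68 ± 0.35 CPM in the libraries labelled DNMT3A2 (1.29, SE 0.11, adjusted p = 2.74e-10). SLC38A2, a sodium-coupled carrier of neutral amino acids, rose from 424 ± 21.4 to 527 ± 1.33 and 629 ± 13.2 CPM. SLC1A4, a carrier of alanine, serine and cysteine, was at 32.1 ± 1.69 CPM for WT, 67.0 ± 3.96 for ΔDNMT3A, 146 ± 7.54 for DNMT3A1 and 78.2 ± 1.70 in the libraries labelled DNMT3A2.

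The isoform lines parted at several carriers of this class. SLC1A3, another glutamate carrier, was at 154 ± 3.79 CPM in WT and 173 ± 6.35 in ΔDNMT3A. In DNMT3A1 it was at 59.8, 61.9 and 62.6 CPM, but in the libraries labelled DNMT3A2 at 236, 243, 241 and 256 CPM, a log2 fold change of -1.99 between them (SE 0.03, adjusted p = 3.15e-25). SLC7A5 and SLC3A2 form the large neutral amino acid carrier of growing cells. SLC7A5 was at 398 ± 7.04, 505 ± 34.3, 391 ± 19.5 and 691 ± 20.7 CPM in WT, ΔDNMT3A, DNMT3A1 and the libraries labelled DNMT3A2, and SLC3A2 at 414 ± 9.77, 518 ± 19.7, 417 ± 8.88 and 524 ± 9.54 CPM. Both rose in ΔDNMT3A against WT (0.33 and 0.31, SE 0.03 each), whereas only SLC7A5 of the pair passed the test in the libraries labelled DNMT3A2 against ΔDNMT3A (0.45, SE 0.03, adjusted p = 4.25e-11; SLC3A2 0.01, adjusted p = 0.719).

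The remaining amino acid carriers are given as mean levels in the order WT, ΔDNMT3A, DNMT3A1 and libraries labelled DNMT3A2. SLC7A8, a basolateral light chain for neutral amino acids, had 6.36 ± 0.39, 12.5 ± 0.68, 13 ± 1.13 and 5.55 ± 0.77 CPM and was thus high in the same pair of lines as SLC3A1. SLC38A3, a glutamine carrier best known from liver, had 12.1 ± 0.75, 4.94 ± 0.86, 6.73 ± 0.28 and 6.54 ± 1.23 CPM. It was the member of the class with the lowest fold change among those called without overlap in ΔDNMT3A against WT (-1.31, SE 0.09, adjusted p = 1.05e-11). SLC7A1, the widely used carrier of arginine and lysine, had 154 ± 2.56, 131 ± 7.35, 131 ± 10.1 and 199 ± 4.12 CPM, and SLC7A6, a light chain that pairs with SLC3A2, had 182 ± 1.71, 207 ± 6.92, 134 ± 5.49 and 223 ± 2.13 CPM. For both, the libraries labelled DNMT3A2 were the highest line. SLC43A1, a carrier of branched-chain amino acids, had 60.7 ± 1.80, 48.7 ± 2.04, 74.6 ± 4.28 and 69.1 ± 1.83 CPM, so that ΔDNMT3A was lowest. The intestinal glutamate carrier SLC1A1 had 92.2 ± 1.22, 95.9 ± 1.74, 94.3 ± 1.51 and 62.6 ± 0.52 CPM and passed the test in neither ΔDNMT3A against WT (adjusted p = 0.167) nor DNMT3A1 against ΔDNMT3A (adjusted p = 0.545). SLC38A1, a second abundant glutamine carrier, had 612 ± 13.9, 679.6 ± 19.5, 683 ± 18.3 and 792 ± 8.13 CPM, and the scarce SLC38A8 had 0.441 ± 0.19, 1.24 ± 0.13, 1.82 ± 0.39 and 1.85 ± 0.14 CPM.

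SLC7A4, a member of the cationic amino acid carrier family whose substrate is not settled, was nearly without reads in the libraries labelled DNMT3A2. These had 1 read in all 4 libraries together, while each ΔDNMT3A library had 100 to 170 reads, 533 in total. The ratio of the summed reads, scaled to library size, was 0.00236 (95% exact interval 5.97e-05 to 0.0132, which covers counting error only). In WT, ΔDNMT3A and DNMT3A1 it was at 2.40, 3.93 and 2.17 CPM.

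A list of 8 genes of the amino acid stress response, which is known to act on several of these carriers, was read beside them. All 8 (ATF4, DDIT3, ASNS, TRIB3, CHAC1, SESN2, CEBPB and VLDLR) were called higher in DNMT3A1 and in the libraries labelled DNMT3A2 against ΔDNMT3A, with medians of 0.50 and 0.53 where all genes tested had 0.01 and 0.00. Of all genes tested, 30.4% and 33.8% were called higher in these comparisons. In ΔDNMT3A against WT, 5 of the 8 were higher and 3 lower. ASNS, the asparagine synthetase, was at 389 ± 8.02, 251 ± 9.53, 451 ± 16.3 and 479 ± 10.04 CPM in WT, ΔDNMT3A, DNMT3A1 and the libraries labelled DNMT3A2. ATF4, the transcription factor of the response, was at 528 ± 13.4, 589 ± 15.7, 710 ± 17.2 and 655 ± 2.40 CPM.

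The ion carriers, 31 members, were split in ΔDNMT3A against WT (12 higher, 10 lower, median 0.04), leaned higher in DNMT3A1 against ΔDNMT3A (13 higher, 6 lower, median 0.09) and lower in the libraries labelled DNMT3A2 (8 higher, 18 lower, median -0.26). SLC26A3 was low throughout, which bears on what its fold changes can show. It was at 0.746, 1.05, 1.08 and 0.771 CPM in WT, 0.788, 0.858, 0.574 and 1.10 CPM in ΔDNMT3A, 0.985, 0.459 and 0.676 CPM in DNMT3A1 and 0.987, 1.71, 1.95 and 2.59 CPM in the libraries labelled DNMT3A2. WT, ΔDNMT3A and DNMT3A1 overlapped, and the lowest of the libraries labelled DNMT3A2 lay within the range of ΔDNMT3A. The log2 fold change was -0.13 in ΔDNMT3A against WT (95% interval -0.60 to 0.33) and 1.14 in the libraries labelled DNMT3A2 against ΔDNMT3A (SE 0.24). The sulfate carrier SLC26A2 of the same family was far more abundant, at 640 ± 24.9 and 649 ± 50.9 CPM in WT and ΔDNMT3A, and was lower in DNMT3A1 (532 ± 22.2 CPM) and in the libraries labelled DNMT3A2 (362 ± 14 CPM).

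SLC34A2, a sodium-phosphate carrier, differed most in this class between ΔDNMT3A and the isoform lines. It was at 0.508, 0.362, 0.319 and 0.386 CPM in WT, 0.334, 0.207, 0.236 and 0.299 CPM in ΔDNMT3A, 3.05, 3.56 and 3.27 CPM in DNMT3A1 and 4.03, 4.06, 3.50 and 3.34 CPM in the libraries labelled DNMT3A2. Every isoform library lay above every WT and ΔDNMT3A library. Against ΔDNMT3A the log2 fold changes were 3.57 in DNMT3A1 (SE 0.21) and 3.74 in the libraries labelled DNMT3A2 (SE 0.19). SLC34A2 is a member only through its level in the isoform lines, so no p is given for these. The isoform lines did not pass the test against each other (-0.17, 95% interval -0.43 to 0.08, adjusted p = 0.224).

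Sodium-proton exchangers separated the isoform lines. SLC9A4 was at 2.12, 2.21, 1.79 and 1.90 CPM in WT, 2.94, 2.90, 3.28 and 3.12 CPM in ΔDNMT3A, 10.7, 12 and 11 CPM in DNMT3A1 and 0.711, 1.01, 0.743 and 0.972 CPM in the libraries labelled DNMT3A2. No line overlapped another, and DNMT3A1 exceeded the libraries labelled DNMT3A2 by 3.70 on the log2 scale (SE 0.12, adjusted p = 4.62e-19). SLC9A2, which lies beside it on chromosome 2, was at 23.3 ± 0.90, 35.2 ± 1.36, 38.5 ± 0.74 and 13.6 ± 0.53 CPM in the same lines. The basolateral sodium-potassium-chloride carrier SLC12A2 had the order of SLC7A11, with 243 ± 4.68, 200 ± 3.86, 272 ± 6.88 and 389 ± 11.3 CPM. The sodium-bicarbonate carrier SLC4A7 was highest in DNMT3A1 (27.2 ± 0.28 CPM), above ΔDNMT3A (17.3 ± 1.42), the libraries labelled DNMT3A2 (16 ± 0.81) and WT (11.9 ± 1.10). SLC8A1, a sodium-calcium exchanger, was at 0.510, 1.5, 4.30 and 1.32 CPM.

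Several further sugar and ion carriers were lowest in the libraries labelled DNMT3A2. In the same order of lines, SLC5A3, the sodium-coupled carrier of myo-inositol, had 163 ± 7.70, 155 ± 11.6, 112 ± 6.67 and 77.7 ± 1.26 CPM, a log2 fold change of -1.0 in the libraries labelled DNMT3A2 against ΔDNMT3A (SE 0.04, adjusted p = 2.78e-16). SLC5A9, a relative of SLC5A1, had 11.9 ± 0.76, 8.21 ± 1.22, 11 ± 0.42 and 3.18 ± 0.51 CPM. SLC4A3, an anion exchanger, had 5.62 ± 0.42, 3.67 ± 0.39, 2.82 ± 0.55 and 1.73 ± 0.24 CPM, and SLC26A6, an apical anion exchanger of the SLC26A3 family, had 35.8 ± 1.71, 29 ± 1.44, 25.9 ± 1.56 and 21.9 ± 0.98 CPM. The basolateral anion exchanger SLC4A2 had 133 ± 3.81, 144 ± 7.5, 131 ± 4.09 and 124 ± 2.68 CPM, a narrower range. SLC2A8, an intracellular glucose carrier, was lowest in DNMT3A1, at 76.8 ± 3.26, 89.8 ± 4.15, 55.3 ± 0.92 and 70.9 ± 2.11 CPM, as was the potassium-chloride carrier SLC12A7, at 63.2 ± 2.6, 57.9 ± 1.99, 38.5 ± 1.2 and 77.5 ± 1.03 CPM. SLC20A1, a phosphate carrier, was lowest in WT, at 97 ± 2.2, 130.1 ± 4.44, 125 ± 1.26 and 135 ± 5.06 CPM.

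All 5 nucleoside carriers among the members were called in ΔDNMT3A against WT, 2 higher and 3 lower. Of all genes tested 62.2% were called there, and 68.2% of those at 1 CPM or more, so with 5 members this is not read as a trait of the class. SLC29A1, the main equilibrative carrier, was at 84.6 ± 2.79 CPM for WT, 90.6 ± 2.32 for ΔDNMT3A, 66.5 ± 1.35 for DNMT3A1 and 78.3 ± 1.12 in the libraries labelled DNMT3A2. Its rise of 0.09 in ΔDNMT3A (SE 0.03, adjusted p = 0.0162) was the smallest change of the class, and without WT replicate 4 it was not called (0.07, adjusted p = 0.0805). SLC29A2, a second equilibrative carrier, was at 39.2, 37.7, 38.4 and 37.1 CPM in WT and 21.5, 22.4, 20.6 and 19.2 CPM in ΔDNMT3A (log2 fold change -0.87, SE 0.05, adjusted p = 8.79e-14), with 25 ± 0.86 CPM in DNMT3A1 and 28.3 ± 0.76 CPM in the libraries labelled DNMT3A2. Both isoform lines lay between ΔDNMT3A and WT without overlap. SLC29A4, which also carries monoamines, fell from 42.2 ± 2.05 to 23.6 ± 0.62 CPM and was at 33.8 ± 1.25 CPM in DNMT3A1 and 25.1 ± 0.92 CPM in the libraries labelled DNMT3A2, where the difference from ΔDNMT3A was not called (0.08, adjusted p = 0.15). SLC29A3, an intracellular carrier, rose from 9.30 ± 0.93 to 15.1 ± 0.97 CPM and was at 7.05 ± 0.67 CPM in DNMT3A1 and 11.3 ± 0.98 CPM in the libraries labelled DNMT3A2. The concentrative carrier SLC28A2 was the scarcest, at 0.900, 0.573, 0.890 and 1.90 CPM, with a log2 fold change of 1.75 in the libraries labelled DNMT3A2 against ΔDNMT3A (SE 0.22). It is a member only through its level in those libraries, so no p is given.

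Among 31 metal carriers, 11 were higher and 10 lower in ΔDNMT3A against WT (median 0.00), 16 higher and 9 lower in DNMT3A1 (median 0.11) and 11 higher and 15 lower in the libraries labelled DNMT3A2 (median -0.16) against ΔDNMT3A. SLC40A1, the only known cellular iron exporter, was at 329, 342, 330 and 331 CPM in WT, 215, 211, 230 and 238 CPM in ΔDNMT3A, 348, 328 and 349 CPM in DNMT3A1 and 152, 162, 145 and 151 CPM in the libraries labelled DNMT3A2. DNMT3A1 overlapped WT, and ΔDNMT3A and the libraries labelled DNMT3A2 lay below both. The log2 fold changes were -0.59 in ΔDNMT3A against WT (SE 0.03, adjusted p = 1.04e-13) and 0.04 in DNMT3A1 against WT (95% interval -0.03 to 0.10, adjusted p = 0.349). The zinc importer SLC39A5 had a similar order, with 100 ± 4.44, 72.1 ± 3.09, 95.3 ± 3.83 and 38.9 ± 1.01 CPM. SLC39A14 was at 819 ± 9.34 CPM for WT, 1145 ± 21.6 for ΔDNMT3A, 836 ± 27.5 for DNMT3A1 and 830 ± 9.13 in the libraries labelled DNMT3A2, so that ΔDNMT3A alone stood apart (0.47 against WT, SE 0.02, adjusted p = 3.62e-14). SLC39A2, another zinc importer, rose from 0.115 ± 0.03 to 1.79 ± 0.36 CPM in ΔDNMT3A, and was at 2.61 ± 1.46 CPM in DNMT3A1 and 3.54 ± 0.27 CPM in the libraries labelled DNMT3A2. The zinc exporter SLC30A4 was at 1.17, 1.72 and 0.892 CPM in WT, ΔDNMT3A and DNMT3A1 and at 0.202 CPM in the libraries labelled DNMT3A2, and the manganese exporter SLC30A10 at 1.5, 2.75, 1.48 and 0.656 CPM.

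Zinc carriers were spread over several orders of lines, again given as WT, ΔDNMT3A, DNMT3A1 and libraries labelled DNMT3A2. SLC30A2, a zinc exporter of vesicles, was highest in ΔDNMT3A, at 0.854 ± 0.20, 3.62 ± 0.43, 2.08 ± 0.25 and 0.788 ± 0.37 CPM. SLC39A10, an importer of the plasma membrane, was lowest there, at 127 ± 2.81, 85.0 ± 1.14, 107 ± 2.94 and 129 ± 4.70 CPM, and SLC30A1, the exporter of the plasma membrane, had 64.5 ± 2.35, 54.9 ± 2.56, 65.1 ± 3.97 and 66.9 ± 0.91 CPM. The intestinal importer SLC39A4 was highest in WT, at 7.33 ± 0.78, 5.17 ± 0.46, 3.87 ± 0.28 and 4.69 ± 0.51 CPM. SLC11A2, which takes up iron at the apical membrane, had 134 ± 3.31, 121 ± 3.99, 167 ± 17.3 and 139 ± 3.58 CPM.

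The vitamin carriers were the class with the lowest median in the libraries labelled DNMT3A2 against ΔDNMT3A among those with 10 or more members (-0.63, 2 higher and 8 lower of 10), and in DNMT3A1 against ΔDNMT3A 2 were higher and 6 lower (median -0.52). The proton-coupled folate carrier SLC46A1 was at 324, 304, 317 and 319 CPM in WT, 436, 447, 436 and 407 CPM in ΔDNMT3A, 269, 267 and 260 CPM in DNMT3A1 and 154, 163, 156 and 158 CPM in the libraries labelled DNMT3A2. No line overlapped another. The log2 fold changes were 0.44 (SE 0.03, adjusted p = 4.15e-12), -0.70 (SE 0.03, adjusted p = 7.52e-13) and -1.46 (SE 0.03, adjusted p = 2.84e-22). The reduced folate carrier SLC19A1 was at 37.3 ± 0.97, 29.6 ± 2.89, 14.9 ± 0.81 and 26.1 ± 1.07 CPM, and the riboflavin carrier SLC52A3 at 2.51 ± 0.23, 1.65 ± 0.12, 0.666 ± 0.05 and 0.851 ± 0.17 CPM. SLC19A2, a thiamine carrier, fell in ΔDNMT3A from 77.8 ± 1.49 to 49.8 ± 2.22 CPM and was at 72.4 ± 2.66 and 76.9 ± 1.56 CPM in the isoform lines.

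Among other vitamin carriers, the ascorbate carrier SLC23A2 had 36.3 ± 1.08, 22.7 ± 0.64, 33.7 ± 1.33 and 18.3 ± 0.61 CPM, so that WT and DNMT3A1 were high, and its relative SLC23A3 had 2.00 ± 0.35, 3.75 ± 0.39, 2.32 ± 0.46 and 0.811 ± 0.25 CPM. The lysosomal SLC46A3 had 1.76 ± 0.21, 3.98 ± 0.38, 3.58 ± 0.012 and 1.42 ± 0.32 CPM, and the riboflavin carrier SLC52A2 had 49.4 ± 1.94, 51.2 ± 1.77, 39.4 ± 0.92 and 42.9 ± 1.15 CPM. SLC46A3 was therefore high in the same pair of lines as SLC3A1.

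The 16 lipid and bile acid carriers had 4 members higher and 8 lower in ΔDNMT3A against WT. SLC10A1, the sodium-coupled bile acid carrier best known from liver, was at 6.04 ± 0.72, 21.5 ± 1.10, 24.7 ± 2.18 and 4.32 ± 0.57 CPM, so that it was high in the same lines as SLC3A1. SLC51B, a subunit of the basolateral bile acid exporter, was at 23.3 ± 0.50, 36.6 ± 2.97, 17.3 ± 1.96 and 22.1 ± 0.35 CPM. Of 8 organic ion carriers, 6 were lower and 1 higher in ΔDNMT3A against WT and 1 was not called (median -0.50). In that class SLC22A3, a carrier of organic cations, was at 10.8 ± 0.80, 6.57 ± 1.11 and 7.01 ± 0.33 CPM in WT, ΔDNMT3A and DNMT3A1 and at 26.2, 26.1, 28.7 and 27.3 CPM in the libraries labelled DNMT3A2. The hepatic organic anion carrier SLC22A9 was at 1.14 ± 0.06, 0.175 ± 0.09, 2.36 ± 0.46 and 0.802 ± 0.37 CPM. It had the lowest log2 fold change of any member in ΔDNMT3A against WT (-2.68, SE 0.28). Its mean reached 1 CPM in WT and DNMT3A1 alone, so no p is given.

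Of the 16 lipid and bile acid carriers, 10 were lower and 3 higher in the libraries labelled DNMT3A2 against ΔDNMT3A (median -0.32). SLC10A4, a family member without settled substrate, had 4.22 ± 0.45, 3.16 ± 0.57, 1.5 ± 0.070 and 0.511 ± 0.10 CPM in the 4 lines, with DNMT3A1 and the libraries labelled DNMT3A2 below the others. SLC10A5 had 1.34 ± 0.21, 1.01 ± 0.21, 2.38 ± 0.29 and 1.36 ± 0.34 CPM. SLC44A2, a choline carrier, had 78.6 ± 3.73, 49.5 ± 4.64, 78.8 ± 1.35 and 82.8 ± 1.74 CPM, so that ΔDNMT3A alone was low. The fatty acid carriers SLC27A4 and SLC27A5 had 29.3 ± 2.05, 34.5 ± 0.56, 22.9 ± 1.61 and 27.6 ± 1.57 CPM and 3.54 ± 0.21, 2.21 ± 0.16, 1.65 ± 0.082 and 1.6 ± 0.32 CPM. In the organic ion class, 4 of 8 were higher and 3 lower in the libraries labelled DNMT3A2 against ΔDNMT3A (median 0.26). SLC22A31 had 6.35 ± 0.19, 3.17 ± 0.35, 4.05 ± 0.10 and 9.81 ± 0.19 CPM, SLC22A18 had 27.7 ± 1.62, 37.7 ± 1.80, 38.4 ± 2.07 and 20.1 ± 1.23 CPM, and the carnitine carrier SLC22A5 had 45.4 ± 1.76, 40.3 ± 1.37, 36.5 ± 1.58 and 32.2 ± 0.69 CPM.

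The 38 mitochondrial carriers had small changes, mostly downward in the isoform lines: 18 higher and 13 lower in ΔDNMT3A against WT (median 0.07), 8 higher and 23 lower in DNMT3A1 against ΔDNMT3A (median -0.22), and 7 higher and 21 lower in the libraries labelled DNMT3A2 (median -0.13). SLC25A12, the aspartate-glutamate carrier, was at 7.41 ± 0.62 CPM in WT and at 9.75 ± 0.60, 13.1 ± 0.59 and 20.1 ± 1.24 CPM in ΔDNMT3A, DNMT3A1 and the libraries labelled DNMT3A2. The citrate carrier SLC25A1 was at 154 ± 7.11, 157 ± 6.14, 139 ± 3.74 and 98.3 ± 2.87 CPM. Of 22 nucleotide sugar carriers and their relatives, 14 were lower and 3 higher in the libraries labelled DNMT3A2 against ΔDNMT3A (median -0.19), and in ΔDNMT3A against WT 12 were lower and 6 higher (median -0.11). SLC35G2 of this class was at 4.46 ± 0.28, 1.5 ± 0.31, 0.823 ± 0.19 and 3.14 ± 0.08 CPM. The lactate carriers SLC16A1 and SLC16A3 moved in opposite directions in ΔDNMT3A, SLC16A1 from 201 ± 3.73 to 160 ± 4.35 CPM (-0.34, SE 0.03, adjusted p = 1.83e-10) and SLC16A3 from 16.1 ± 0.55 to 22.7 ± 0.75 CPM (0.49, SE 0.05, adjusted p = 1.36e-08).

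In the mitochondrial class, SLC25A21, an oxodicarboxylate carrier, was lowest in ΔDNMT3A, at 1.24 ± 0.18, 0.417 ± 0.15, 1.6 ± 0.45 and 1.98 ± 0.53 CPM. Its antisense transcript SLC25A21-AS1, told apart by the strand of the reads, had 1.89 ± 0.18, 1.03 ± 0.086, 2.71 ± 0.30 and 1.70 ± 0.33 CPM. The dicarboxylate carrier SLC25A10 had 17.6 ± 1.26, 24.2 ± 1.58, 14.4 ± 0.97 and 16.6 ± 0.23 CPM, the peroxisomal SLC25A17 had 20.9 ± 1.83, 32.9 ± 0.57, 26.9 ± 0.85 and 23.5 ± 1.09 CPM, and the coenzyme A carrier SLC25A42 had 5.81 ± 0.45, 7.32 ± 0.59, 6.34 ± 0.50 and 3.84 ± 0.22 CPM. Of 6 carboxylate carriers, 4 were lower in the libraries labelled DNMT3A2 against ΔDNMT3A. SLC16A10, the aromatic amino acid carrier placed there by its family, had 23.2 ± 1.26, 27.6 ± 1.70, 39.4 ± 3.07 and 8.23 ± 0.75 CPM, and SLC16A4 had 15.9 ± 0.55, 17 ± 0.47, 18.1 ± 1.76 and 14.9 ± 0.60 CPM. Of 4 vesicular carriers, 3 were lower in that comparison. SLC17A5, the lysosomal sialic acid exporter, had 20.3 ± 0.47, 32.4 ± 1.62, 36.8 ± 0.72 and 18.9 ± 0.73 CPM, and SLC17A9, the vesicular nucleotide carrier, had 66.2 ± 3.10, 67.3 ± 4.30, 36.6 ± 1.91 and 69.8 ± 3.38 CPM. The nucleotide sugar relatives SLC35E4 and SLC35E2B had 0.521 ± 0.16, 1.74 ± 0.16, 2.11 ± 0.42 and 0.798 ± 0.067 CPM and 20.6 ± 0.64, 17 ± 0.83, 21.4 ± 1.25 and 18.8 ± 1.33 CPM. The lysosomal SLC66A1 and its relatives SLC66A2 and SLC66A3 had 20.3 ± 1.22, 25.2 ± 1.06, 22 ± 1.26 and 17.9 ± 1.16 CPM, then 20.8 ± 2.14, 23.6 ± 1.54, 18 ± 0.22 and 19.3 ± 1.28 CPM and 8.16 ± 0.85, 7.45 ± 0.60, 8.14 ± 0.19 and 10.9 ± 0.78 CPM. Among the 15 non-coding RNAs and pseudogenes, 5 were higher and 4 lower in the libraries labelled DNMT3A2 against ΔDNMT3A. SLC9A3-AS1 had 54.0 ± 1.55, 45 ± 1.77, 28.2 ± 2.48 and 51.3 ± 0.060 CPM, and the pseudogene SLC9A7P1, whose reads may be shared with its parent gene, had 1.70 ± 0.42, 3.17 ± 0.35, 4.82 ± 0.89 and 2.14 ± 0.32 CPM.

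**Figure D3:**
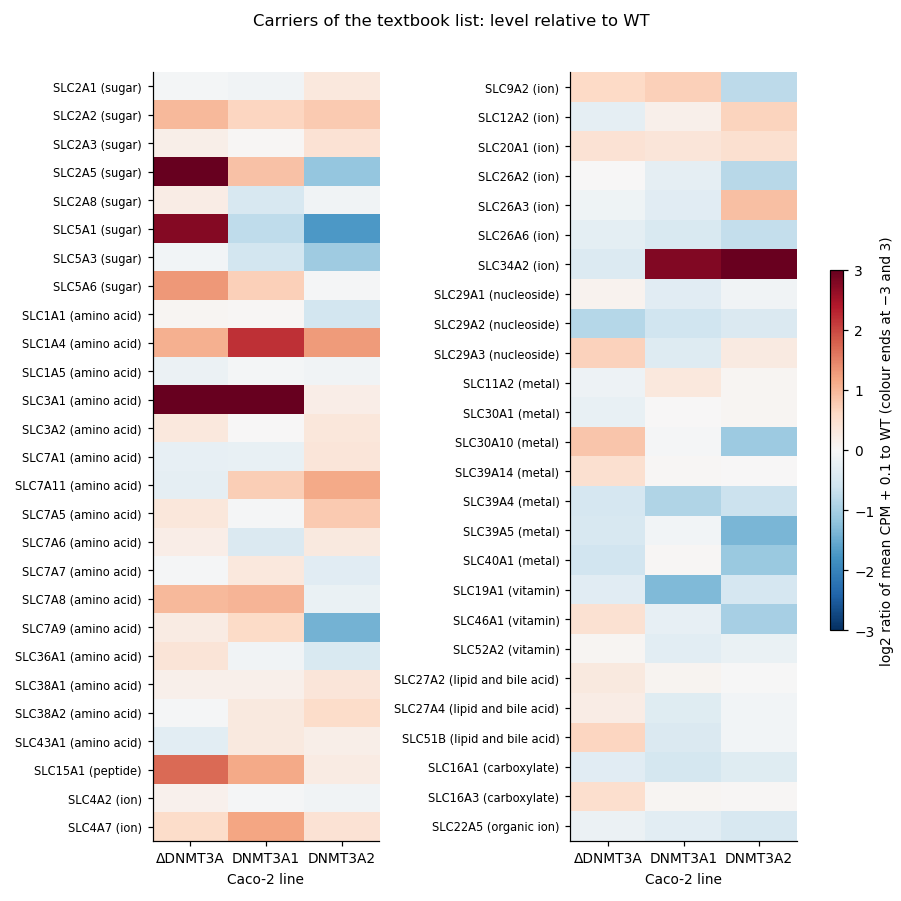
Mean level of textbook intestinal and growth-related carriers in ΔDNMT3A, DNMT3A1 and the libraries labelled DNMT3A2, as the log2 ratio of CPM + 0.1 to WT (red higher, blue lower, colour ending at -3 and 3), ordered by class and family. The strongest red fields are SLC2A5 and SLC5A1 in ΔDNMT3A, SLC3A1 in ΔDNMT3A and DNMT3A1, and SLC34A2 in both isoform lines.

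Ordered by mean level, 99 of the 254 members (39%) were lowest in the libraries labelled DNMT3A2, against 27.5% of the 13761 genes at 1 CPM or more. The highest line was spread more evenly, with 68 members highest in WT cells, 64 in ΔDNMT3A, 67 in DNMT3A1 and 55 in the libraries labelled DNMT3A2. Measured against WT, 194 members were called in DNMT3A1 (100 higher, 94 lower, 76.4% beside 65.3% of all genes tested and 71.6% of those at 1 CPM or more) and 192 in the libraries labelled DNMT3A2 (74 higher, 118 lower, 75.6% beside 68.7% and 74.4%). For all genes the shares higher and lower were 32.6% and 32.7% in DNMT3A1 (34.5% and 37.1% at 1 CPM or more) and 34.3% and 34.4% in the libraries labelled DNMT3A2 (37.5% and 36.9%). At least 2-fold differences from WT were found for 40 members in DNMT3A1 and 41 in the libraries labelled DNMT3A2, beside 12% and 11.1% of all genes. Between the isoform lines 206 were called (129 higher and 77 lower in DNMT3A1, 81.1% beside 68.5% and 74.3%), 41 of them at least 2-fold higher and 9 at least 2-fold lower in DNMT3A1. All genes tested were called higher in DNMT3A1 in 34.5% and lower in 33.9% (36.1% and 38.2% at 1 CPM or more), and at least 2-fold so in 9.17% and 3.98%, together 13.1%. The comparisons share libraries and are not independent of each other.

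Some members moved together with the genes around them. DNMT3A lies on the short arm of chromosome 2, and 5 members near it, SLC35F6, SLC5A6, SLC30A3, SLC4A1AP and SLC30A6, lie between 26764284 and 32224379 (GRCh38). Their 50 nearest tested genes had median log2 fold changes of 1.03 to 1.23 in ΔDNMT3A against WT and of -1.26 to -0.75 in the libraries labelled DNMT3A2 against ΔDNMT3A. SLC5A6, the carrier of biotin and pantothenate, was at 102 ± 3.22 CPM for WT, 253 ± 7.81 for ΔDNMT3A, 168 ± 1.62 for DNMT3A1 and 100 ± 4.24 in the libraries labelled DNMT3A2. Its log2 fold change of 1.29 in ΔDNMT3A was close to its neighbours' median of 1.14, as was the -1.34 beside -1.23 in the libraries labelled DNMT3A2. In DNMT3A1 against ΔDNMT3A it fell by 0.59 (SE 0.03) with a neighbours' median of 0.00. SLC30A3, a zinc carrier, rose in that comparison by 1.58 (SE 0.13, adjusted p = 1.68e-09) with the same neighbours' median.

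SLC3A1 and SLC8A1 lie further along that chromosome, where the neighbours' medians were 0.59 and 0.57 in ΔDNMT3A against WT. SLC3A1 exceeded its neighbours' median by 3.76 on the log2 scale. On chromosome X, the creatine carrier SLC6A8 and SLC10A3 had log2 fold changes of -1.01 and -1.12 in the libraries labelled DNMT3A2 against ΔDNMT3A, beside neighbours' medians of -1.07 and -1.02. In DNMT3A1 against the libraries labelled DNMT3A2, absolute neighbours' medians of 0.5 or more also occurred on other chromosomes. There SLC12A7 on chromosome 5 had -1.01 beside -0.84, and SLC7A1 on chromosome 13 had -0.60 beside -0.60. Other members went against their neighbours, among them SLC46A3 on chromosome 13 (1.33 beside -0.60) and SLC2A3 on chromosome 12 (-0.38 beside 0.51). The part of the neighbourhood in these values was not tested. SLC2A5 and SLC15A1 had neighbours' medians of 0.04 and -0.12 in ΔDNMT3A against WT, and SLC5A1 had 0.28.

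**Figure D4:**
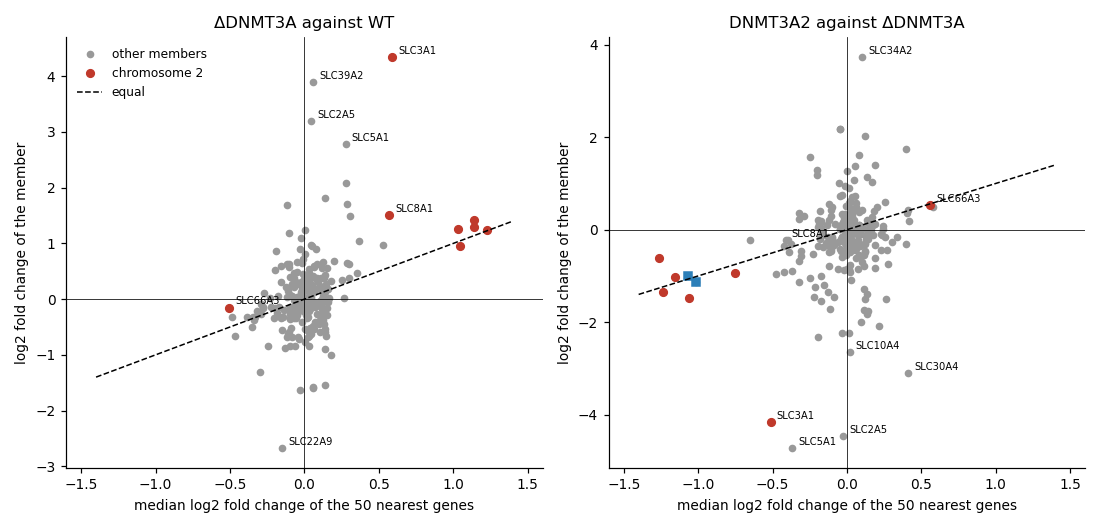
Log2 fold change of each tested member (vertical axis) against the median log2 fold change of the 50 nearest tested genes on its chromosome (horizontal axis), in ΔDNMT3A against WT and in the libraries labelled DNMT3A2 against ΔDNMT3A; the dashed line marks equal values, coloured points have an absolute median of at least 0.5 on chromosome 2 (red) or X (blue), and SLC7A4 is left out. A group of chromosome 2 members lies near the dashed line at 1.03 to 1.23 and again at -1.26 to -0.75, while SLC3A1 lies 3.76 above it.

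A 300-base promoter (250 bases before the start and 50 after) was matched for 200 of the 254 members by symbol. Members had more CG pairs than promoters at large, with a median of 26 per promoter (lower and upper quartile 14.8 and 32) against 14 in all 27305 promoters, and 18.5% of members but 44% of all promoters had fewer than 10 pairs. Among members called at least 2-fold higher in ΔDNMT3A, 6 of 15 (40%) had fewer than 10 pairs, against 16.6% of the 181 that differed less. Among those at least 2-fold lower in the libraries labelled DNMT3A2 against ΔDNMT3A, 10 of 29 (34.5%) did. These shares are descriptions of lists chosen by their change, and DNA methylation was not measured in these libraries. The paper profiled methylation by bead array in the same Caco-2 lines and in colonic epithelial cells of both mouse genotypes. Those methylation values were not read here. The half-site GTTAAT of the enterocyte factor HNF1, searched on both strands, was present in 7% of members and 6.89% of all promoters, and among the printed stretches in SLC5A1 and SLC26A3. The core TGATGNAA of the amino acid response element was found in 5% of members and 3.67% of all promoters, and SLC2A5 holds it. The core TGACNNNGC of the antioxidant response element was found in 16% and 13.6%, and SLC5A1 holds it.

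Members whose levels ran most like those of the 4 marker genes were found by Pearson's r of log2(CPM + 1) over the 15 libraries, which share only 4 lines, so that r mainly reflects the order of the lines. For SLC2A5 these were the fatty acid carrier SLC27A2 (0.939), SLC39A14 (0.932), SLC5A1 (0.930), SLC36A1 (0.906) and SLC18B1 (0.897). SLC5A1 was most like SLC39A14 (0.950), SLC2A9 (0.949), SLC18B1 (0.935), SLC2A5 (0.930) and the oxoglutarate carrier SLC25A11 (0.915). For SLC7A11 they were SLC38A2 (0.977), SLC34A2 (0.969), SLC7A2 (0.953), SLC12A2 (0.952) and SLC25A36 (0.935). The low SLC26A3 had weaker matches, led by the betaine carrier SLC6A12 (0.823) and SLC2A4 (0.823), then SLC22A23 (0.800), SLC22A3 (0.791) and SLC25A26 (0.770).

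Genes that carry or drive solute carriers without being members were read from a list of 17 partners. In ΔDNMT3A against WT 4 were higher and 7 lower (median -0.03). In DNMT3A1 against ΔDNMT3A, 3 of 16 tested were higher and 6 lower (median -0.04), and in the libraries labelled DNMT3A2 5 were higher and 9 lower (median -0.10). ATP1B1, the beta subunit of the sodium pump whose gradient drives sodium-coupled uptake, was at 518 ± 14.5, 740 ± 3.28, 509 ± 24.2 and 304 ± 9.46 CPM in WT, ΔDNMT3A, DNMT3A1 and the libraries labelled DNMT3A2. SGK1, a kinase that acts on ion carriers, was at 32.4 ± 0.79, 53.7 ± 2.33, 33.8 ± 0.95 and 30.9 ± 1.41 CPM. ARRDC4, an arrestin-related adaptor in the endocytosis of glucose carriers, was at 16.2 ± 0.47 CPM in WT and 2.27 ± 0.26, 0.104 ± 0.06 and 1.66 ± 0.14 CPM in the other lines.

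In the mouse, 207 of the 226 orthologs were tested, and 1 (0.483%) was called, beside 0.691% of the 14626 genes tested. The unadjusted 95% interval of an ortholog's log2 fold change had a median half-width of 0.31, so that most changes smaller than that were not detectable here. A call asks for more, as p is adjusted over all genes. In simulated mouse counts, the fit recovered 20.2% of 99 genes with a true absolute log2 fold change of 0.5. At a true value of 1 it recovered 81.8% of 99. The simulated counts were drawn gene by gene with a spread set by the gene's level, without variation shared by the genes of an animal. Recovery in the real counts may therefore differ. At an unadjusted p under 0.05 there were 19 orthologs (11 higher, 8 lower in ΔIEC), 9.18% beside 14.1% of all genes. Groups did not overlap for 19 orthologs, beside 10.3% of all genes tested. The called gene was Slc25a45, a member of the mitochondrial carrier family, at 5877808 to 5885766 on chromosome 19 (GRCm38, plus strand). It was at 1.75, 1.99, 2.01 and 1.82 CPM in fl/fl cells and at 5.04, 5.55, 6.36 and 6.37 CPM in ΔIEC cells, without overlap (log2 fold change 1.62, SE 0.16, adjusted p = 0.000959). Markers of tuft cells rose in the same samples, from a sum of 40.3 to 50.7 CPM over 4 markers in fl/fl cells to 127 to 153 CPM in ΔIEC cells, with Dclk1 from 18.5 to 66.2 CPM. The part of tuft cells in the Slc25a45 value was not tested. In Caco-2, SLC25A45 was at 4.69 and 3.79 CPM in WT and ΔDNMT3A. Without fl/fl replicate 2, 3 orthologs were called, Slc25a45 and, both lower in ΔIEC, the manganese exporter Slc30a10 (-1.15) and the sodium-proton exchanger Slc9a4 (-1.65). Slc30a10 was at 113, 45.8, 95.9 and 131 CPM in fl/fl cells and at 57.4, 61.3, 53.5 and 32.5 CPM in ΔIEC cells, so that this fl/fl animal alone lay within the ΔIEC range.

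The orthologs of the Caco-2 markers did not pass the test in the mouse. Slc7a11 came nearest, at 1.25, 2.36, 2.58 and 1.66 CPM in fl/fl cells and 3.43, 3.73, 2.90 and 3.50 CPM in ΔIEC cells (log2 fold change 0.79, adjusted p = 0.19), without overlap. Slc2a5 was at 3.32, 1.89, 3.46 and 2.87 CPM in fl/fl cells and 3.14, 3.53, 3.46 and 3.00 CPM in ΔIEC cells, and its 95% interval of -0.27 to 0.63 excludes the Caco-2 value of 3.19. Slc5a1 was at 170, 189, 158 and 170 CPM and at 181, 175, 193 and 201 CPM (interval -0.08 to 0.33). Slc26a3, in contrast to Caco-2, was among the most abundant carriers of the mouse colon, at 364 RPKM in fl/fl cells beside 414 RPKM for Slc25a5 and 258 RPKM for Slc26a2. It was at 1899, 3775, 1697 and 1913 CPM in fl/fl cells and 1614, 1819, 2370.5 and 2398 CPM in ΔIEC cells (log2 fold change -0.18, interval -0.76 to 0.40), where 1 fl/fl animal stood apart. Slc2a3, the leading member in Caco-2, had at most 0.179 CPM in any mouse library. Slc15a2, named after its values were seen, was at 40.3, 23.3, 28.2 and 37.6 CPM in fl/fl cells and at 0.645, 17.9, 0.741 and 17.8 CPM in ΔIEC cells, where 2 of the 4 animals were much lower than the others (log2 fold change -1.79, adjusted p = 0.342).

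**Figure D5:**
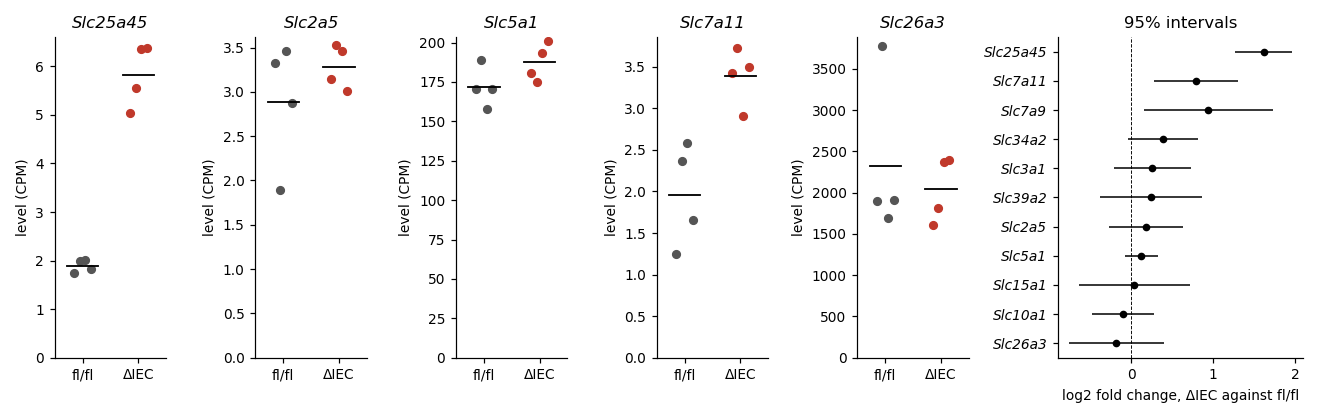
Level of 5 orthologs in CPM in each animal (points) with the group mean (bar), from fl/fl and ΔIEC mice, and at the right the log2 fold change of ΔIEC against fl/fl with its 95% interval for 11 orthologs. For Slc25a45 the interval of 1.27 to 1.96 lies above 0 and the groups do not overlap, while the intervals of Slc2a5, Slc5a1 and Slc26a3 include 0.

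Over the 207 orthologs tested, 111 (53.6%) had the same sign in ΔIEC against fl/fl as the human gene had in ΔDNMT3A against WT, beside 53.4% of 9994 genes paired by symbol. Non-overlapping groups in both species occurred for 17 of them, and 4 of these went in opposite directions. Taken for each species alone, 55.4% of all human genes tested were without overlap in ΔDNMT3A against WT and 10.3% of mouse genes. The share of all paired genes without overlap in both species was not computed, nor their directions. The 17 are therefore not read as likeness between the species.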

How the data were processed

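RNA-seq was made from 15 Caco-2 libraries and 8 mouse libraries. Per the submitters' processing notes and the methods, the authors checked reads with FastQC, trimmed them with cutadapt and Trim Galore 0.4.4, aligned human reads to GRCh38 and mouse reads to GRCm38 with STAR 2.5.2b, and counted reads on genes with featureCounts (1.5.2 in the notes), by strand for the human libraries and without strand for the mouse. The deposited values are raw counts per gene, with no normalization. DNMT3A1 replicate 3 was not analysed here. Replicate numbers of the mouse libraries only name them.

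Levels are CPM on library sizes scaled by TMM. Each comparison was fitted to its 2 groups alone by edgeR 4.0.16 (quasi-likelihood F test, filterByExpr, TMM) in R 4.3.3, and p was adjusted by Benjamini-Hochberg over every gene tested, with a threshold of 0.05. SE is the absolute log2 fold change over the square root of F. Tables were read with pandas 2.3.3. The members and lists were chosen with earlier results of these data known. The carriers named are the 4 marker genes SLC2A5, SLC5A1, SLC7A11 and SLC26A3, a textbook list of intestinal and growth-related carriers, the highest and lowest called member without overlap in each class and comparison, the 5 highest and 5 lowest over all members, and called mouse orthologs. SLC15A2, SLC25A1, SLC6A8, SLC10A3, SLC30A3, SLC19A2, Slc30a10, Slc9a4, Slc38a1 and Slc23a2 were named after their values were seen. SLC7A4 is given by reads. Of the textbook list, 1 member is not reported here.

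The labels do not say that replicates were separate cultures, so that p-values measure the spread between these libraries. Reads carry no molecular identifiers, and intervals on reads cover counting error only. Replicates differed by more than counting noise in each group. The fits were tested on simulated data with known changes. The alternatives were DESeq2 1.42.0, RLE scaling, no filter, a length correction, all 4 lines in a single fit, the replicate number as a block, each lane alone, each library left out, other member rules, and values less the median of the 50 nearest tested genes. Promoters are those of RefSeq (GRCh38.p14), matched by symbol.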

Additional observations from a re-analysis of the deposited data

Results flagged for a closer look

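Among 345 groups of 4 libraries, 18 held a library that stood apart from the other 3 (Dixon's test at the 95% level), close to the 1 in 20 that chance gives. In the mouse, Slc26a3 was at 3775 CPM in fl/fl replicate 2, against 1697 to 1913 CPM in the other fl/fl animals. In WT, replicate 2 held SLC10A3 at 15.2 CPM (others 13.6 to 13.7) and SLC37A2 at 3.12 CPM (2.77 to 2.83). WT replicate 1 held SLC1A3 at 159 CPM (151 to 153), SLC16A10 at 21.3 CPM (23.7 to 24) and SLC27A5 at 3.85 CPM (3.41 to 3.47), and WT replicate 3 held SLC27A4 at 32.4 CPM (27.9 to 28.6). In ΔDNMT3A, replicate 3 held SLC1A4 at 72.9 CPM (64.6 to 65.7) and SLC44A2 at 56.4 CPM (46.3 to 48). ΔDNMT3A replicate 1 held SLC37A2 at 1.17 CPM (0.797 to 0.858) and SLC25A42 at 6.45 CPM (7.58 to 7.67), and replicate 2 held SLC17A5 at 29.98 CPM (33.1 to 33.3) and SLC23A3 at 3.17 CPM (3.92 to 3.99). Of the libraries labelled DNMT3A2, replicate 3 held SLC15A1 at 11.5 CPM (10.2 to 10.3) and SLC7A4 at 0.0354 CPM, its only read, with 0 in the others. Replicate 4 held SLC25A12 at 18.3 CPM (20.7 to 20.9) and SLC66A2 at 21.2 CPM (18.5 to 18.9), and replicate 2 held SLC25A21 at 2.77 CPM (1.70 to 1.75).

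Slc25a45 rose in ΔIEC against fl/fl cells by 1.62 on the log2 scale, whereas SLC25A45 had -0.31 in ΔDNMT3A against WT, with groups that did not overlap in either species. Slc7a11 had 0.79 in the mouse, not called, and SLC7A11 had -0.28 in Caco-2, again without overlap in either. The difference between the species was not tested.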

How the results depend on the processing

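Of 1276 alternative values of 78 named fold changes, 1263 kept their direction and their side of the threshold, 5 were no longer called, 3 became called and 5 changed sign. The last were SLC26A3 in ΔDNMT3A against WT (0.141), SLC6A8 in the libraries labelled DNMT3A2 against ΔDNMT3A (0.0615) and SLC40A1 in DNMT3A1 against WT (-0.0744), all less the median of their 50 nearest genes, SLC3A2 in the libraries labelled DNMT3A2 without ΔDNMT3A replicate 4 (-0.0161; the range over libraries left out was -0.0161 to 0.0237), and Slc26a3 without fl/fl replicate 2 (0.158; range -0.303 to 0.158). Of these only SLC6A8 had been called. Values less the median of the 50 nearest genes kept the adjusted p of the main fit, so their side of the threshold was fixed. Only their direction could change. SLC5A6 in ΔDNMT3A against WT fell to 0.151 there, and SLC10A3 in the libraries labelled DNMT3A2 against ΔDNMT3A to -0.106. Both are counted as having kept their side. Requiring an absolute log2 fold change of at least 1 left 25 members in ΔDNMT3A against WT (196 before), 22 in DNMT3A1 (186) and 49 in the libraries labelled DNMT3A2 (207) against ΔDNMT3A, 40 (194) and 41 (192) against WT in the same order of lines, and 50 between the isoform lines (206), as fewer genes can pass. In the mouse, DESeq2 called 3 orthologs where edgeR called 1.

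Leaving out each library gave 189 to 197, 171 to 184, 199 to 207, 185 to 190, 186 to 194 and 196 to 202 members in these 6 comparisons, and 1 to 3 orthologs in the mouse, 3 of them without fl/fl replicate 2. Samples with the same replicate number did not deviate together (correlations of -0.161 to 0.131, 1 of 21 pairs over 0.1, against 3 of 63 pairs with other numbers), so that the numbers were not taken to pair the libraries. With the replicate number as a block, 200, 181, 208, 187, 189 and 205 members were called. Lanes of replicates 1 and 2 and of replicates 3 and 4 held each line. SLC2A1 in ΔDNMT3A against WT was called without ΔDNMT3A replicate 2 (-0.08, adjusted p = 0.0309), in replicates 3 and 4 alone (-0.11, adjusted p = 0.0386) and with the block (-0.06, adjusted p = 0.0461). In the same comparison SLC25A45 was not called in replicates 1 and 2 alone (-0.21, adjusted p = 0.177), nor were SLC29A1 and SLC7A9 in replicates 3 and 4 alone (0.08, adjusted p = 0.218, and 0.22, adjusted p = 0.0747). Without members whose 50 nearest genes had an absolute median of 0.5 or more, an alternative chosen after seeing the data, 188, 182, 196, 175, 189 and 170 were called, with 70 higher and 126 lower in the libraries labelled DNMT3A2 against ΔDNMT3A.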

Other observations

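DESeq2, run as an alternative on the mouse counts, called Slc38a1 and Slc23a2 beside Slc25a45. Slc38a1, a glutamine carrier, was at 71.5, 71.6, 74.5 and 72.0 CPM in fl/fl cells and at 92.7, 93.6, 80.3 and 89.7 CPM in ΔIEC cells, higher in 4 of 4 animals (log2 fold change 0.29, adjusted p = 0.0161 by DESeq2). Slc23a2, an ascorbate carrier, was at 199.6, 190.5, 213 and 177 CPM in fl/fl cells and at 142, 155, 145 and 168 CPM in ΔIEC cells, lower in 4 of 4 animals (-0.36, adjusted p = 0.0181 by DESeq2). Neither was called by edgeR. In Caco-2, SLC38A1 was called higher and SLC23A2 lower in ΔDNMT3A against WT by edgeR, with log2 fold changes of 0.14 and -0.69, the same directions as in the mouse. Both genes were picked after their values were seen.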
